A study of Mus musculus with 12 samples.

Results

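Cuedc1, Pianp, Ctdnep1, Sec14l3, Rnps1, Atp11a, Mpv17l, Myo5a and Adhfe1 are 9 genes whose counts in mouse kidney cortex were several-fold to nearly on-off different between normal control mice and both groups of diabetic mice. They were selected on the size of that difference in these same libraries and listed by name, out of 46095 gene symbols in the table, and all 9 passed the filter on low counts that left 17530 genes. Their differences from normal controls are therefore given as a description, with no test. What was tested is the difference between the diabetic groups, the genes beside each of the 9 on the chromosome, and their relatives and partners. Since the list asked for a difference from normal controls in both diabetic groups, it bears in part on how alike these groups are.

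RNA-seq counts came from 12 libraries of renal cortex, 4 in each of 3 groups: diabetic nephropathy treated with sodium butyrate (DN+NaB), diabetic nephropathy (DN) and normal control (NC). All mice carried the labels C57BL/6 and 12 weeks. Diabetic nephropathy is kidney disease of diabetes, and sodium butyrate is the salt of a short-chain fatty acid that inhibits histone deacetylases. The labels leave out the way diabetes was induced, any batch, and how much sodium butyrate was given, by what route and for how long. The labels disagree on tissue, with renal cortex in the tissue field and prefrontal cortex in the extraction text. Snap25, a synaptic gene of neurons, had 0 counts throughout. Genes of the convoluted proximal tubule of the kidney summed to 23214 to 30778 CPM in DN+NaB, 16577 to 27728 in DN and 19171 to 23037 in NC. A group had 4 mice by the design text, but which mouse gave which library is not labelled, so the p-values here rest on the spread between libraries. Libraries held 60219070 to 70282959 counts in DN+NaB, 58394975 to 70674015 in DN and 61734412 to 65781183 in NC. The first principal component held 55.6% of the variance of the 500 most variable genes and set NC (-43.4 to -41.9) apart from DN+NaB (19.3 to 27.5) and DN (17.3 to 20.4). DN replicate 4 stood apart on the second component (13.8% of the variance) at 39.7, against -23.4 to 10.4 for the other 11 libraries. Levels are CPM, counts scaled to the total of each library with TMM factors, which adjust for differences in library composition, and a log2 fold change is always that of the edgeR fit with its standard error (SE). In bulk tissue, fewer cells of a type and less RNA per cell cannot be told apart.

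The 9 genes have no single pathway in common. Cuedc1 carries a CUE domain, a small fold that binds ubiquitin. Pianp is a membrane protein of neurons and a ligand of the paired immunoglobulin-like receptor PILR alpha. Ctdnep1 is the nuclear envelope phosphatase that dephosphorylates lipins, the enzymes that make diacylglycerol from phosphatidic acid. Sec14l3 belongs to the SEC14-like proteins, which bind lipids in a hydrophobic pocket. Rnps1 is an RNA-binding protein of the exon junction complex and of the ASAP and PSAP complexes, where it acts in splicing and RNA quality control. Atp11a is a P4-ATPase, a flippase that moves phosphatidylserine and phosphatidylethanolamine to the inner leaflet of the plasma membrane. Mpv17l is a membrane protein related to Mpv17, described in peroxisomes and mitochondria in relation to reactive oxygen species. Myo5a is the class V myosin that carries melanosomes and other vesicles along actin, and its loss in mice gives the dilute coat colour. Adhfe1 is the mitochondrial hydroxyacid-oxoacid transhydrogenase, which oxidises 4-hydroxybutyrate while it reduces 2-oxoglutarate.

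The RefSeq table of promoters (GRCm38.p6; from 250 bases before to 50 after each transcription start) held 9 windows for 6 of the 9 genes. The windows of the 4 genes nearest to on-off are shown so that their base composition can be compared, each read along the plus strand, which is the coding strand of all 4. For Cuedc1 and Pianp the first of several starts is given. Capitals mark matches, on either strand, to 1 of 6 motifs that were searched: TATAAA for the basal TATA box, CCAAT for the CAAT motif, GGGCGG for the GC box, CACGTG for the E-box, TGACGTCA for the cyclic AMP response element and AGGTCA for the core site of nuclear receptors.
Cuedc1, chr11:88098896-88099195: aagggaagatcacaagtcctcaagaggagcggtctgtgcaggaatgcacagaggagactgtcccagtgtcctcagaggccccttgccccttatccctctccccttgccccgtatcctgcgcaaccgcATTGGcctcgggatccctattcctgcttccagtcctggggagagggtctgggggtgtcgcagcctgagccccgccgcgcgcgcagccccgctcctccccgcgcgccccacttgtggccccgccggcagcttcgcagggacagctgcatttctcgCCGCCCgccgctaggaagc
Pianp, chr6:124996470-124996769: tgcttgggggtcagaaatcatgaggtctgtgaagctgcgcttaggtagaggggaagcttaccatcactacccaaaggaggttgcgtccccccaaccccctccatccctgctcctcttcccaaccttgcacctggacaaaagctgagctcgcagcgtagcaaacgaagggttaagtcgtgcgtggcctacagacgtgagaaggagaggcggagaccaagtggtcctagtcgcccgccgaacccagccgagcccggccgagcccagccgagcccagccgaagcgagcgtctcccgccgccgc
Ctdnep1, chr11:69980918-69981217: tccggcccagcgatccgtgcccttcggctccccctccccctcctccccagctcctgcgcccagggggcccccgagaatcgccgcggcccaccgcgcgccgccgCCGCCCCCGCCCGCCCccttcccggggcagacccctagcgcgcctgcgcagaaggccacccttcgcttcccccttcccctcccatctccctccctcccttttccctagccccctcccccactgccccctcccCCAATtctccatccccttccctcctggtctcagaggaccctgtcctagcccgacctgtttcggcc
Sec14l3, chr11:4064603-4064902: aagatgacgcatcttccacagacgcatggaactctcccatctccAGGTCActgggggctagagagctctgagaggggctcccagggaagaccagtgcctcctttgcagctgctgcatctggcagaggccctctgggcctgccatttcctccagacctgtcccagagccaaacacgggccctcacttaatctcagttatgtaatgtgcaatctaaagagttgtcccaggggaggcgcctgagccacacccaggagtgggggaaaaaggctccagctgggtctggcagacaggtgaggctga

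The 3 windows printed for the genes that were higher in diabetes hold 67.0% G and C in Cuedc1, 62.7% in Pianp and 74.0% in Ctdnep1, and 22, 22 and 24 CG dinucleotides in the same order. Over all 32851 promoter windows of the table the medians are 52.7% and 7. The windows at the other starts are poorer in both, with 42.0% at the second start of Cuedc1 and 54.0% and 53.3% at the other starts of Pianp, and 6 CG dinucleotides in each. The Sec14l3 window has 58.3% G and C and 4 CG dinucleotides. Among the genes that were lower, the windows of Atp11a and Myo5a, not printed, hold 76.0% and 72.0% G and C and 39 and 36 CG dinucleotides, at or above most of the printed windows. Ctdnep1 has 3 GC boxes side by side, of which the last pair overlaps, and a CCAAT box, and Cuedc1 has 1 of each. Pianp has none of the 6 motifs in this window, and Sec14l3 has 1 AGGTCA. A GC box is found in 35.7% of all windows, a CCAAT box in 37.4% and AGGTCA in 16.3%. TATAAA (13.6% of all windows), CACGTG (7.15%) and TGACGTCA (1.79%) were found in none of the 9 windows, which belong to 6 of the 9 genes. No motif was therefore shared by the 4 windows printed, and a match describes letters only.

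Cuedc1 was near the low end of expression in NC and readily measured in every diabetic library. It had 11.8, 12.1, 9.66 and 9.96 CPM in DN+NaB, 10.5, 8.96, 10.4 and 8.65 CPM in DN, and 0.475, 0.356, 0.828 and 0.416 CPM in NC. In counts this is 587 to 728 in DN+NaB, 509 to 688 in DN and 23 to 55 in NC. Every diabetic library was above every NC library, and NC replicate 3 was the highest of its group. The means were 10.9 ± 1.23 CPM in DN+NaB, 9.64 ± 0.973 in DN and 0.519 ± 0.212 in NC (SD, n = 4 each), so that DN was 18.6 times and DN+NaB 20.9 times NC. The log2 fold change was 4.38 (SE 0.24) for DN+NaB over NC and 4.21 (SE 0.24) for DN over NC.

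Pianp, the ligand known from neurons, had the largest ratio among the genes that were higher in diabetes. Its level was 14.8, 7.93, 11.4 and 8.05 CPM in DN+NaB, 8.75, 7.13, 16.3 and 13.3 CPM in DN, and 0.413, 0.433, 0.181 and 0.222 CPM in NC. The NC libraries held 12 to 28 counts each. The diabetic libraries spread more than for Cuedc1, with coefficients of variation of 31.0% in DN+NaB and 37.1% in DN, but the lowest of them was still well above the highest NC library. Mean levels were 10.5 ± 3.27 CPM in DN+NaB, 11.4 ± 4.21 in DN and 0.312 ± 0.130 in NC (SD, n = 4 each). DN was 36.4 times and DN+NaB 33.8 times NC, with log2 fold changes of 5.18 (SE 0.38) for DN and 5.07 (SE 0.38) for DN+NaB.

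Beside Pianp, markers of neurons and glia were read as a list. Of its 8 genes 6 could be tested, and 1 rose in DN over NC, where 3.82% of all 17530 genes were called higher: Nefl, a neurofilament subunit, at 2.01 ± 0.382 CPM in DN+NaB, 2.79 ± 0.947 in DN and 0.309 ± 0.240 in NC (log2 fold change 3.16 for DN over NC, SE 0.49, edgeR adjusted p = 0.00114). Their summed level ran from 18.8 to 25.8 CPM in DN+NaB, 21.3 to 28.3 in DN and 18.8 to 22.8 in NC, most of it from the myelin gene Mbp. Snap25 was at 0 and Slc17a7 at 0 to 2 counts in every library, and the part of the cells that hold Nefl in the Pianp values was not tested.

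Ctdnep1, the lipin phosphatase, had 5.60, 8.44, 6.71 and 3.17 CPM in DN+NaB, 5.81, 6.02, 9.48 and 5.70 CPM in DN, and 0.459, 0.418, 0.241 and 0.319 CPM in NC. These levels rest on 221 to 510 counts in DN+NaB, 342 to 626 in DN and 16 to 30 in NC. The groups did not overlap with NC, and the lowest diabetic library (DN+NaB replicate 4) was still above every NC library. The means were 5.98 ± 2.21 CPM in DN+NaB, 6.75 ± 1.82 in DN and 0.359 ± 0.0984 in NC (SD, n = 4 each). DN was 18.8 times and DN+NaB 16.7 times NC, with log2 fold changes of 4.05 (SE 0.33) for DN+NaB and 4.23 (SE 0.33) for DN.

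Sec14l3 ran the other way and was close to off in diabetes. Counts were 1, 4, 2 and 0 in DN+NaB, 10, 5, 1 and 7 in DN, and 401, 494, 851 and 502 in NC. The library with 0 counts allows up to 3 counts, or 0.0431 CPM. No diabetic library came near an NC library, and NC replicate 3 was the highest. In CPM, NC had 6.14, 7.65, 12.8 and 6.96, and the means were 0.0290 ± 0.0282 in DN+NaB, 0.0932 ± 0.0593 in DN and 8.39 ± 3.01 in NC (SD, n = 4 each). From the summed counts of 23 in DN and 2248 in NC, the level in NC was 90.5 times that in DN (exact binomial 95% interval 60.2 to 143). With 7 counts in DN+NaB it was 299 times that in DN+NaB (145 to 744). Both intervals cover counting error only, and the log2 fold changes were -8.12 (SE 0.59) for DN+NaB over NC and -6.47 (SE 0.52) for DN over NC.

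Sec14l3 is known from ciliated airway epithelium, so markers of ciliated cells were read beside it. Of the 6 listed genes 5 were in the table and 4 could be tested, and 0 passed the threshold in DN over NC (edgeR adjusted p under 0.05; 0 also at an unadjusted p under 0.05, where 21.9% of all genes lay). Their summed level was 2.27 to 3.39 CPM in DN+NaB, 2.15 to 3.23 in DN and 2.30 to 3.59 in NC, which overlap. Tekt1, a tektin of cilia, had 0 to 3 counts in every library.

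**Figure D1:**
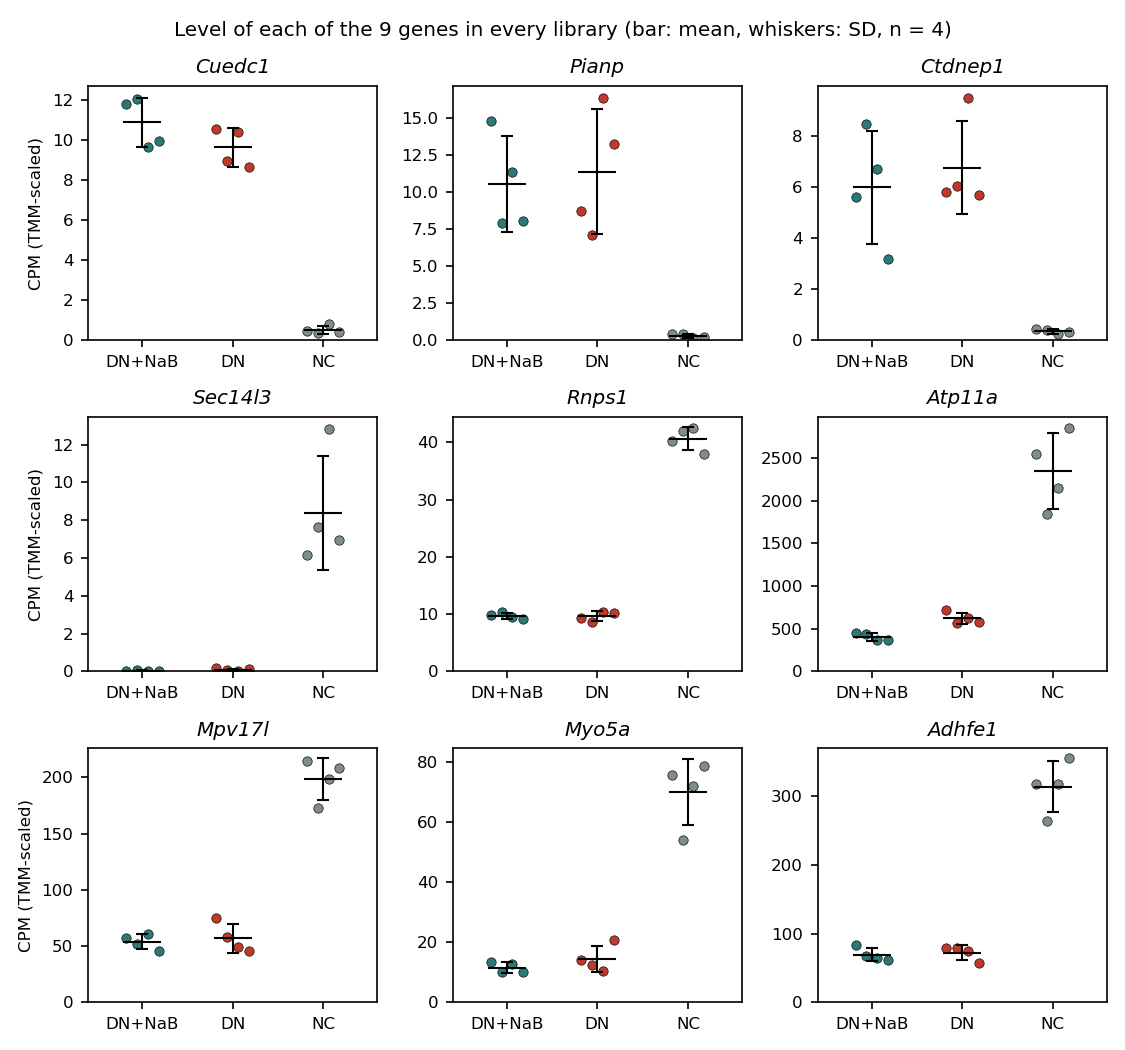
Level in CPM (y axis, linear, from 0, scaled per gene) of each of the 9 genes in every library of DN+NaB, DN and NC. Points are libraries, the long bar is the mean and the whiskers are SD (n = 4). In all 9 panels the NC points lie apart from both diabetic groups: below them for Cuedc1, Pianp and Ctdnep1 and above them for the other 6 genes.

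The other 5 genes were abundant or moderately expressed in NC and 3.49 to 4.85 times higher in NC than in DN. Rnps1, the exon junction protein, was the steadiest of the 9. It had 9.89, 10.3, 9.58 and 9.16 CPM in DN+NaB, 9.42, 8.59, 10.4 and 10.2 CPM in DN, and 40.2, 42.0, 42.5 and 38.0 CPM in NC. Coefficients of variation were 5.08% in DN+NaB, 8.56% in DN and 5.05% in NC, and the gap between diabetic and NC libraries was many times the spread within any group. The means were 9.74 ± 0.495 CPM in DN+NaB, 9.65 ± 0.826 in DN and 40.7 ± 2.05 in NC (SD, n = 4 each), a log2 fold change of -2.06 (SE 0.11) for DN+NaB over NC and -2.08 (SE 0.11) for DN over NC.

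Atp11a, the flippase, had the highest level per length of the 9 in every group. It had 456, 441, 369 and 368 CPM in DN+NaB, 714, 566, 629.6 and 580.2 CPM in DN, and 2545, 1845, 2146 and 2856 CPM in NC. The 3 groups did not overlap at all: every DN+NaB library was below every DN library, and every DN library below every NC library. Mean levels were 409 ± 46.5 CPM in DN+NaB, 622 ± 66.8 in DN and 2348 ± 444 in NC (SD, n = 4 each). NC was 5.75 times DN+NaB and 3.77 times DN, with log2 fold changes of -2.52 (SE 0.15) for DN+NaB over NC and -1.92 (SE 0.15) for DN over NC.

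Mpv17l, the relative of Mpv17, had 57.6, 52.0, 60.9 and 45.3 CPM in DN+NaB, 75.0, 58.1, 48.9 and 45.6 CPM in DN, and 215, 173, 199 and 209 CPM in NC. DN replicate 1 was the highest diabetic library and still under the lowest NC library. The means were 53.9 ± 6.85 CPM in DN+NaB, 56.9 ± 13.2 in DN and 199 ± 18.6 in NC (SD, n = 4 each). Its log2 fold change of -1.80 (SE 0.15) for DN over NC was the smallest of the 9, and that for DN+NaB over NC was -1.88 (SE 0.16).

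Myo5a, the vesicle motor, had 13.3, 10.0, 12.9 and 10.2 CPM in DN+NaB, 14.0, 12.6, 10.6 and 20.7 CPM in DN, and 75.7, 54.1, 72.0 and 78.8 CPM in NC. The highest diabetic library was DN replicate 4, the library that stood apart on the second principal component, and without it the log2 fold change for DN over NC was -2.52 in place of -2.28 (SE 0.20). Group means were 11.6 ± 1.75 CPM in DN+NaB, 14.5 ± 4.38 in DN and 70.2 ± 11.1 in NC (SD, n = 4 each), and DN+NaB over NC had a log2 fold change of -2.60 (SE 0.20). Melanocytes are the cells in which this motor is best known, and of 5 melanocyte genes only Pmel could be tested, at a log2 fold change of -0.42 (SE 0.32, edgeR adjusted p = 0.494). The 5 genes summed to 0.749 to 1.32 CPM in DN+NaB, 0.546 to 1.14 in DN and 0.888 to 1.12 in NC, and Tyr was at 0 in all libraries.

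Adhfe1, the transhydrogenase of 4-hydroxybutyrate, had 83.6, 68.0, 64.0 and 62.3 CPM in DN+NaB, 78.7, 78.4, 75.4 and 56.8 CPM in DN, and 318, 264, 317 and 355 CPM in NC. DN replicate 4 was low among the DN libraries, and without it the log2 fold change for DN over NC was -2.04 in place of -2.12 (SE 0.14). The means were 69.5 ± 9.70 CPM in DN+NaB, 72.3 ± 10.5 in DN and 313 ± 37.2 in NC (SD, n = 4 each), and DN+NaB over NC had a log2 fold change of -2.17 (SE 0.14). Of the DN-over-NC values of the 9 genes, leaving out DN replicate 4 moved that of Myo5a alone by more than its SE.

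Marker lists of other cells differed from NC as well. Of 8 leukocyte genes 6 could be tested, and 1 fell in DN over NC (Cd4; 4.42% of all genes were called lower) while Itgam was at 0.42 (edgeR adjusted p = 0.796). In DN+NaB over NC 5 of the 6 fell (Ptprc, Cd3e, Cd4, Cd8a and Adgre1; 8.94% of all genes were called lower). The summed leukocyte level was 7.72 to 14.4 CPM in DN+NaB, 10.7 to 43.1 in DN and 29.5 to 38.9 in NC, so that DN spanned the whole range of NC. Of 8 genes of the straight end of the proximal tubule, segment S3, 5 fell in DN over NC (Slc22a7, Slc7a13, Slc22a30, Acsm3 and Cyp7b1; 4.42% of all genes) and 1 rose (Slc5a10; 3.82%), with a median log2 fold change of -1.79 against 0.01 over all genes tested. Their summed level overlapped, at 2235 to 3113 CPM in DN+NaB, 2339 to 3338 in DN and 2525 to 3208 in NC. Most of it came from Aqp1, Slc6a18 and Slc5a10, none of which fell. Aqp1 had a mean of 1495 CPM in DN+NaB, 1678 in DN and 1314 in NC. Acsm3, the highest in NC of the 5 that fell, had 10.0 CPM in DN+NaB, 15.8 in DN and 421 in NC. Of 8 genes of the convoluted segments S1 and S2, 2 rose in DN over NC (Slc2a2 and Slc7a7; 3.82% of all genes). In DN+NaB over NC 4 of the 8 rose (6.62% of all genes). Of 7 genes of the thick ascending limb and distal tubule, Umod and Egf fell (4.42% of all genes) and Pvalb rose (3.82%) in DN over NC. In DN+NaB over NC 3 of the 7 fell (8.94% of all genes) and 2 rose (6.62%). Their summed level was 7043 to 8565 CPM in DN+NaB, 6438 to 8185 in DN and 8440 to 14184 in NC. In DN over NC, where 8.23% of all genes passed, 1 of 5 endothelial genes (Cdh5, lower) and 1 of 7 collecting duct genes (Slc26a4, lower) also passed. Of 2 adrenal genes tested 1 passed (Hsd3b1, higher, on a mean of 0.379 CPM in DN). Podocyte and erythrocyte genes had 0 called by edgeR or DESeq2, with 1 podocyte gene at an unadjusted p under 0.05. The part of these cells in the values of the 9 genes was not tested.

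Over all 17530 genes, 1443 passed an adjusted p of 0.05 in DN over NC (8.23%), with 669 higher (3.82%) and 774 lower (4.42%), and 2729 passed in DN+NaB over NC (15.6%), with 1161 higher (6.62%) and 1568 lower (8.94%). The 2 comparisons share the NC libraries. With libraries scaled by their totals alone, the split was 503 higher and 1103 lower in DN over NC, and 875 higher and 2070 lower in DN+NaB over NC, a larger share of lower genes than with TMM factors in both. All 9 genes lay past the threshold in both comparisons, which the way they were listed fixes. Groups that do not overlap in CPM, as for all 9, were found for 2340 genes (13.3%) in DN against NC and 4884 (27.9%) in DN+NaB against NC. The list is also not complete: 269 genes had non-overlapping groups, passed in both comparisons and had a log2 fold change of at least 1.80 in size in both. That cut is the smallest of the 9, Mpv17l in DN over NC. Of the 269, 139 were higher and 130 lower, and the 9 are among them. Ranked by p in DN over NC, the 9 genes stood between rank 4 (Rnps1) and rank 30 (Myo5a). Because they were listed on this same difference, the ranks only describe them and are no test.

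**Figure D2:**
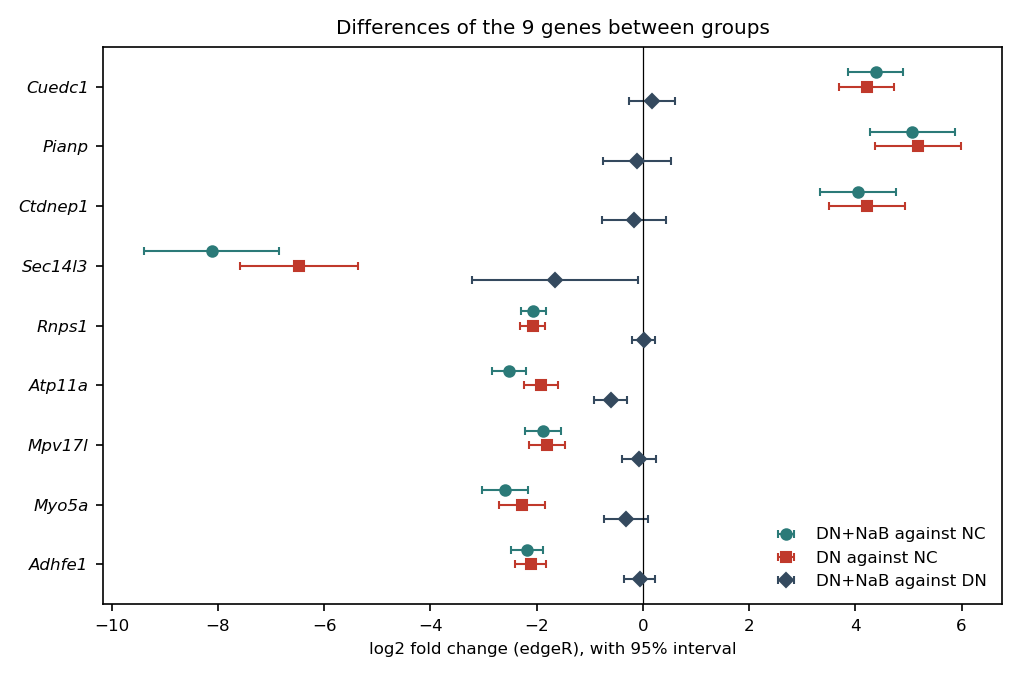
Log2 fold change (x axis) with its 95% interval for each of the 9 genes (rows) in DN+NaB over NC (circles), DN over NC (squares) and DN+NaB over DN (diamonds). The differences of both diabetic groups from NC lie close together, between 4.05 and 5.18 for the 3 genes that were higher and between -8.12 and -1.80 for the other 6, while those between the diabetic groups lie near 0 except for Sec14l3 (-1.65) and Atp11a (-0.61).

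No difference between DN+NaB and DN passed the edgeR test over all genes for any of the 9. In DN+NaB over DN, 0 of the 9 passed an edgeR adjusted p of 0.05, where 4 of all 17530 genes did (0.0228%), 2 higher (0.0114%) and 2 lower (0.0114%), and 2 of the 9 had an unadjusted p under 0.05, where 9.85% of all genes lay. With DESeq2, 1 of the 9 passed, and 1.47% of all genes did. That gene was Atp11a, which was lower in DN+NaB than in DN by a log2 fold change of -0.61 (SE 0.14, 95% interval -0.92 to -0.30). Its edgeR adjusted p was 0.141 (unadjusted 0.000856), the DESeq2 adjusted p was 0.00800, and over all alternatives the adjusted p ran from 0.00800 to 0.340. All 4 DN+NaB libraries were below all 4 DN libraries for Atp11a, as 4.56% of all genes had non-overlapping groups in this comparison. Sec14l3 had a log2 fold change of -1.65 (SE 0.73, interval -3.21 to -0.09, edgeR adjusted p = 0.480), on 7 counts in DN+NaB and 23 in DN.

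For the other 7 genes the interval of the difference between the diabetic groups held 0. Rnps1 had the narrowest, with a log2 fold change of 0.01 (interval -0.21 to 0.24) and an edgeR adjusted p of 0.974. Adhfe1 was at -0.06 (-0.35 to 0.23), Mpv17l at -0.08 (-0.40 to 0.25) and Cuedc1 at 0.17 (-0.27 to 0.61). Wider intervals were found for Myo5a at -0.32 (-0.73 to 0.09), Pianp at -0.11 (-0.75 to 0.54) and Ctdnep1 at -0.18 (-0.78 to 0.43). Without DN replicate 4 the Myo5a value was -0.10. The lowest bound of these 7 intervals was -0.78, that of Ctdnep1.

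Levels per length place the 9 genes among each other. CPM were divided by the summed exon length in kilobases (RPKM) from GENCODE M21, which 15915 of the 17530 genes have. In NC, Atp11a had 211 RPKM, Adhfe1 82.9 and Mpv17l 52.8, which put them above nearly all other genes. Atp11a stood at percentile 91.9 in DN+NaB, 95.1 in DN and 99.1 in NC, Adhfe1 at 84.3 in DN+NaB, 84.9 in DN and 97.1 in NC, and Mpv17l at 80.3 in DN+NaB, 81.3 in DN and 94.9 in NC. Rnps1 was at the 41.6 percentile in DN+NaB, 40.8 in DN and 69.8 in NC, and Myo5a at 28.5 in DN+NaB, 30.9 in DN and 58.8 in NC. Sec14l3 was at the 0.459 percentile in DN+NaB, 1.77 in DN and 49.4 in NC, where it had 3.01 RPKM.

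The 3 genes that were higher in diabetes were at the bottom of the range in NC: Cuedc1 at the 5.81 percentile (0.0898 RPKM), Pianp at 7.12 (0.110 RPKM) and Ctdnep1 at 10.2 (0.165 RPKM). In diabetic libraries they were near the middle. Cuedc1 was at the 41.4 percentile in DN+NaB and 38.6 in DN, Pianp at 54.0 in DN+NaB and 54.9 in DN, and Ctdnep1 at 48.4 in DN+NaB and 49.7 in DN. In the order of NC levels the ranges over libraries of Atp11a, Adhfe1, Mpv17l, Rnps1 and Myo5a do not overlap. The NC ranges of Sec14l3 (2.20 to 4.60 RPKM) and Myo5a (3.66 to 5.33) overlap, as do those of Ctdnep1 (0.110 to 0.210), Pianp (0.0634 to 0.152) and Cuedc1 (0.0616 to 0.143).

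The genes beside each of the 9 on the chromosome were read next, taking the 5 nearest tested genes on each side in RefSeq order, 90 genes in all. In DN over NC, 14 of the 90 passed the test (15.6%, against 8.23% of all genes), 7 higher and 7 lower, with a median log2 fold change of -0.05 against 0.01. For DN+NaB over NC, 20 passed (22.2%, against 15.6%), 9 higher and 11 lower. Between DN+NaB and DN, 0 passed with edgeR (0.0228% of all genes did), 10 had an unadjusted p under 0.05 (9.85% of all genes) and 2 passed with DESeq2 (1.47% of all genes), Gabarap and Gm15348, shares of the 90 close to those of all genes. The called neighbours were not spread evenly: 6 of the 14 flank Cuedc1.

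**Figure D3:**
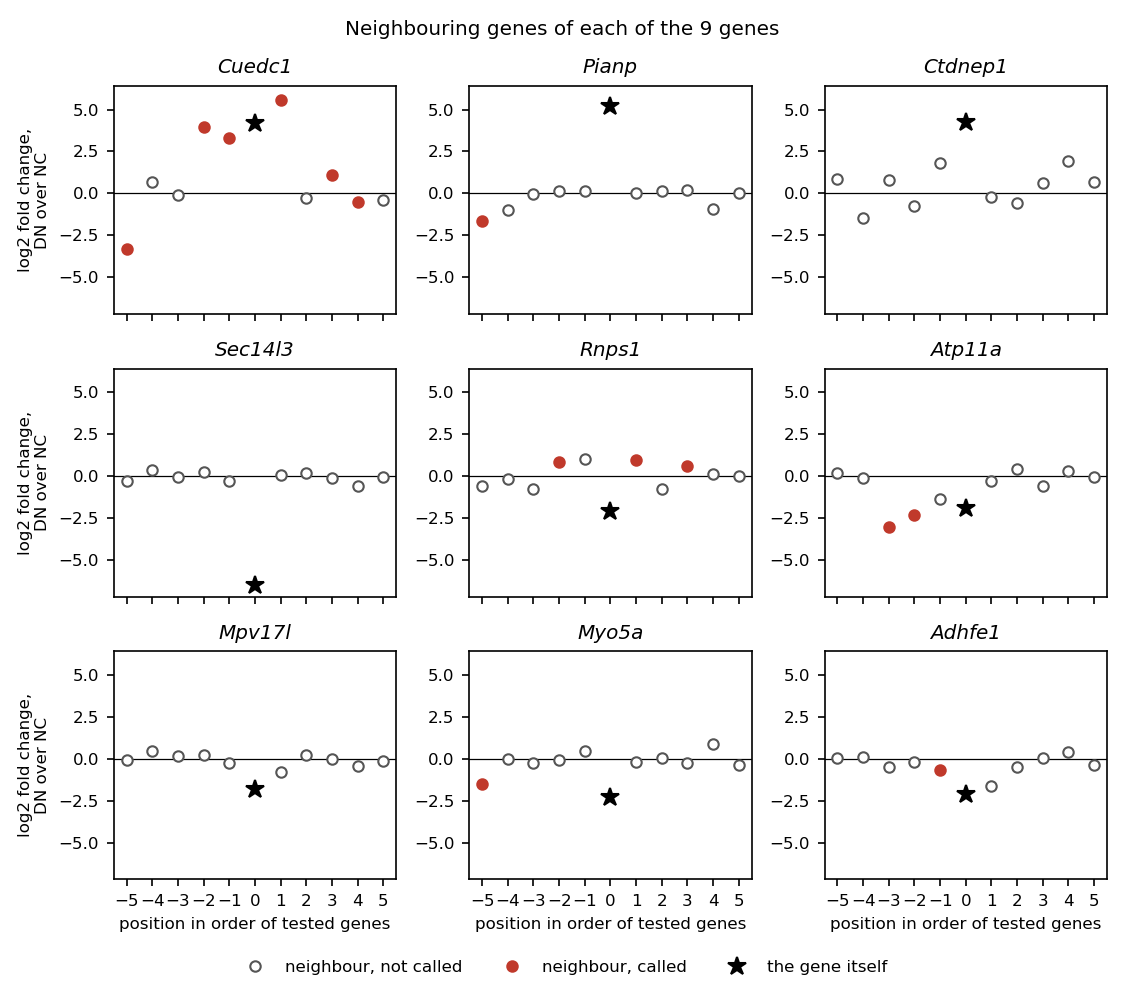
Log2 fold change in DN over NC (y axis) of each of the 9 genes (star, position 0) and of the 5 tested genes on each side of it in chromosome order (x axis, position in the order of tested genes). Filled circles passed the test and open circles did not. Cuedc1 is the only one of the 9 with neighbours on both sides that passed and were higher by a log2 fold change over 3, while the neighbours of Sec14l3 and Mpv17l all lie between -0.77 and 0.43.

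Cuedc1 on chromosome 11 sat in a row of 4 consecutive tested genes, Srsf1, Vezf1, Cuedc1 and Mrps23, that were all higher in diabetes. Mrps23, a protein of the small subunit of the mitochondrial ribosome, had 34.9, 42.0, 38.8 and 37.3 CPM in DN+NaB, 38.1, 38.1, 39.5 and 32.8 CPM in DN, and 0.934, 0.820, 0.874 and 0.541 CPM in NC. Its log2 fold change in DN over NC was 5.55 (SE 0.17, edgeR adjusted p = 1.92e-10), larger than that of Cuedc1, and no library of NC came near a diabetic one. Vezf1, a zinc finger transcription factor known from blood vessel formation, had 9.38 ± 2.04 CPM in DN+NaB, 10.1 ± 2.78 in DN and 1.04 ± 0.412 in NC (SD, n = 4 each; log2 fold change 3.28 for DN over NC, SE 0.31, edgeR adjusted p = 1.80e-05). Srsf1, a widely expressed splicing factor named here after its values were seen, had 2.06, 2.98, 7.41 and 8.84 CPM in DN+NaB, 8.51, 8.17, 1.92 and 9.60 CPM in DN, and 0.321, 0.604, 0.301 and 0.555 CPM in NC. Its libraries within a diabetic group differed several-fold, and DN replicate 3 and DN+NaB replicates 1 and 2 were low, yet all lay above NC (log2 fold change 3.98 for DN over NC, SE 0.59, edgeR adjusted p = 0.00118).

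Rows of 4 or more consecutive tested genes that passed in the same direction were rare in DN over NC, with 7 in all, 3 higher and 4 lower. In RefSeq the Cuedc1 gene overlaps Mrps23, and which of the 2 genes received reads from shared stretches is not known. In NC, Srsf1 stood at the 4.92 percentile of levels per length, Vezf1 at 13.1 and Mrps23 at 21.7, where Mrps23 was at 88.0 in DN+NaB and 87.9 in DN. Further out, Lpo, Akap1 and C030037D09Rik also passed, at log2 fold changes in DN over NC of -3.32, -0.53 and 1.09, and so the higher values did not extend over all 10 neighbours.

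Ctdnep1, also on chromosome 11, lay among genes of low level: 7 of its 10 neighbours were under percentile 25 of levels per length in DN+NaB, in DN and in NC. In DN over NC 0 of the 10 passed with edgeR, 2 had an unadjusted p under 0.05 and 1 passed with DESeq2 (Elp5), where 12.3% of all genes did. Ybx2 and Elp5, 2 of the 10, rose in DN+NaB over NC, where 6.62% of all genes were called higher. Elp5, a subunit of the Elongator complex that overlaps Ctdnep1 on the opposite strand, had 100, 18, 76 and 34 counts in DN+NaB, 46, 90, 51 and 53 in DN, and 21, 19, 8 and 27 in NC. Its log2 fold change was 1.74 in DN+NaB over NC (edgeR adjusted p = 0.0403) and 1.81 in DN over NC (adjusted p = 0.0512). On the other side Gabarap, an autophagy protein, had a log2 fold change of -0.22 in DN over NC (SE 0.26, edgeR adjusted p = 0.692). Without strand in the counting, reads of Ctdnep1 and Elp5 could not be told apart where the genes overlap.

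Some genes close to Ctdnep1 that most tissues express had low counts that jumped between libraries of 1 group. They were named after their values were seen. Eif5a, a translation factor, had 234, 237, 949 and 259 counts in DN+NaB, 163, 141, 246 and 128 in DN, and 1034, 182, 179 and 650 in NC. Acadvl, an enzyme of fatty acid oxidation, had 1188, 753, 162 and 200 counts in DN+NaB, 136, 3015, 191 and 301 in DN, and 685, 137, 143 and 103 in NC. The groups of both genes overlap, and single libraries set the highest value of some groups.

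**Figure D4:**
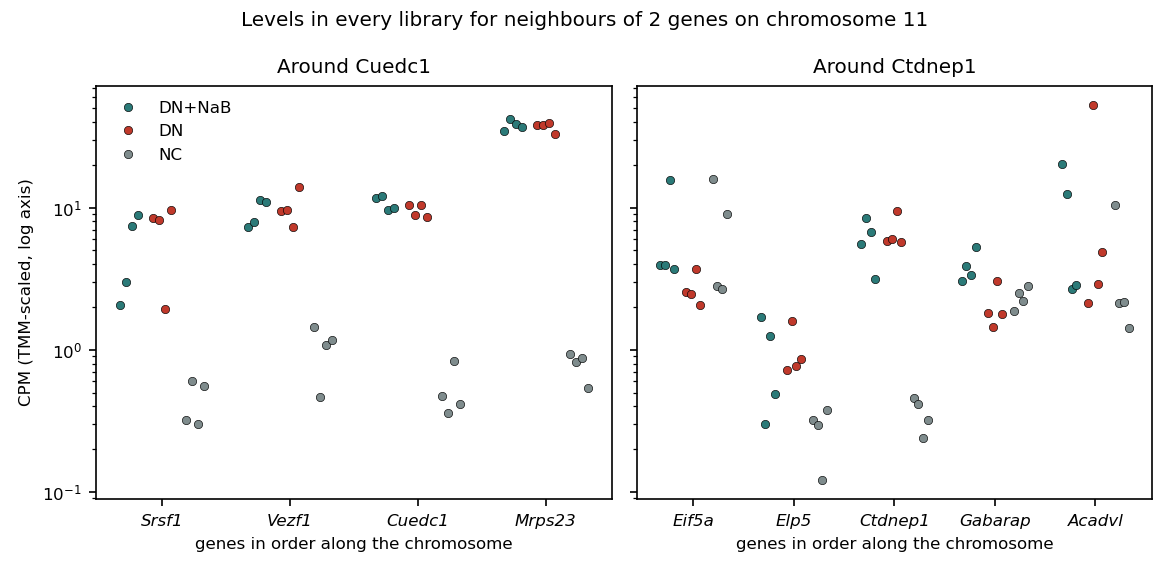
Level in CPM (y axis, log scale) in every library for 4 consecutive tested genes around Cuedc1 (left) and for Ctdnep1 with 4 genes near it (right), each ordered along chromosome 11 (x axis). Colours mark DN+NaB, DN and NC, in that order from left to right within a gene. Around Cuedc1 all 4 genes have their NC points below every diabetic point, while around Ctdnep1 only Ctdnep1 has, and Eif5a and Acadvl have single libraries several times above the rest of their group.

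Rnps1 was lower in diabetes. Of its 10 neighbours 3 rose in DN over NC (Eci1, Abca3 and E4f1; 3.82% of all genes were called higher) and 0 fell (4.42%). Eci1 is an enzyme of unsaturated fatty acid oxidation (152 ± 15.2 CPM in DN+NaB, 154 ± 32.3 in DN and 80.5 ± 7.87 in NC, log2 fold change 0.94 in DN over NC, SE 0.14, edgeR adjusted p = 9.59e-04). Abca3 is a lipid transporter (log2 fold change 0.81, SE 0.14, adjusted p = 0.00218). Before Atp11a in RefSeq order, the long noncoding RNAs Gm15348 and Gm39133 fell, with 0.517 ± 0.174 CPM in DN+NaB, 1.52 ± 0.991 in DN and 12.7 ± 2.04 in NC for Gm15348 (log2 fold change -3.06 in DN over NC, SE 0.42, edgeR adjusted p = 5.40e-04). Gm39133 had a log2 fold change of -2.32 (SE 0.42, edgeR adjusted p = 0.00308). Gm33587, the nearest gene on that side, had -1.36 (adjusted p = 0.340), and Mcf2l on the other side -0.27 (adjusted p = 0.325).

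Adhfe1 and its neighbour Rrs1, a ribosome assembly factor, formed a row of 2 genes that were lower. Rrs1 had 9.48 ± 1.02 CPM in DN+NaB, 9.94 ± 0.338 in DN and 15.7 ± 1.34 in NC (log2 fold change -0.66 in DN over NC, SE 0.12, edgeR adjusted p = 0.00375). The antisense 2610203C22Rik, the next tested gene on the other side, overlaps Adhfe1 on the opposite strand. Its log2 fold change was -1.64 in DN over NC (edgeR adjusted p = 0.0611) and -3.02 in DN+NaB over NC (edgeR adjusted p = 0.00244), on 2 to 45 counts per library. Beside Pianp, the adjacent Cops7a and Zfp384 had log2 fold changes of 0.15 and -0.00 in DN over NC, neither past the test. Cd4, 5 genes away, encodes a co-receptor of helper T cells and fell by 1.65 on the log2 scale (SE 0.29, edgeR adjusted p = 0.00278). In DN+NaB over NC 3 of the 10 neighbours of Pianp fell (Cd4, Lag3 and Lpar5), where 8.94% of all genes were called lower. Beside Myo5a, Gm2981 and Myo5c were at 0.43 and -0.22, neither past the test, and Unc13c 5 genes away fell by 1.49 (SE 0.25, edgeR adjusted p = 0.00221). Sec14l3 and Mpv17l had 0 called genes among their 10 neighbours each in DN over NC with edgeR and with DESeq2, and 2 and 1 with an unadjusted p under 0.05. Gal3st1 and Mtfp1 beside Sec14l3 had log2 fold changes of -0.31 and 0.06, and Pdxdc1 and 2900011O08Rik beside Mpv17l had -0.24 and -0.77. In RefSeq, Pianp overlaps Cops7a, Mpv17l overlaps Pdxdc1 and Adhfe1 overlaps 2610203C22Rik, so reads in those stretches are uncertain. For all 9 genes, 0 symbols join the gene's own symbol with the pseudogene ending -ps. Copies under other names were not searched.

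The relatives and partners of the 9 genes were read from 9 lists with 94 other genes, 85 of them tested. In DN over NC, 6 of the 85 passed (7.06%, against 8.23% of all genes), 1 higher and 5 lower, with a median log2 fold change of 0.03 against 0.01. Against NC, 15 passed in DN+NaB, 6 higher and 9 lower (17.6%, against 15.6%), and in DN+NaB over DN 0 did with edgeR, 2 with DESeq2 (Atp8b4 and Lpin2; 1.47% of all genes) and 9 at an unadjusted p under 0.05 (9.85% of all genes). Without DN replicate 4, 12 of the 85 passed in DN over NC (14.1%, against 11.1% of all genes tested without it).

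Of the 9 other CUE domain genes 0 passed in DN over NC with edgeR or DESeq2 and 1 had an unadjusted p under 0.05, and their log2 fold changes ran from -0.38 to 0.14. Of 6 PILR receptors and other ligands 0 passed with either tool and 1 had an unadjusted p under 0.05. Of 4 SEC14-like and related lipid carriers (-0.18 to 0.40) 0 passed either threshold. The 13 partners of Rnps1 in the exon junction, ASAP and PSAP complexes ran from -0.31 to 0.19 with 0 called by edgeR or DESeq2 and 0 at an unadjusted p under 0.05, where Rnps1 itself was at -2.08. Of the 8 relatives and peroxisomal partners of Mpv17l, 0 passed in DN over NC with edgeR or DESeq2 or at an unadjusted p under 0.05, and Mpv17 rose in DN+NaB over NC (106 ± 4.33 CPM in DN+NaB and 74.8 ± 10.5 in NC, log2 fold change 0.50, SE 0.15, edgeR adjusted p = 0.0392).

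Among the 7 other genes of the nuclear envelope phosphatase and lipin list, 1 fell in DN over NC (4.42% of all genes). This was Lpin1, a phosphatidic acid phosphatase that Ctdnep1 acts on. It had 98.6 ± 40.7 CPM in DN+NaB, 97.9 ± 13.3 in DN and 210.1 ± 3.69 in NC (log2 fold change -1.10 in DN over NC, SE 0.22, edgeR adjusted p = 0.00788). Of the 15 flippases and subunits tested beside Atp11a, 1 fell in DN over NC (4.42% of all genes). In DN+NaB over NC 4 fell (Atp8b2, Atp8b4, Atp10a and Atp10d; 8.94% of all genes). Atp10a had 2.74 ± 0.264 CPM in DN+NaB, 3.36 ± 0.644 in DN and 5.99 ± 1.18 in NC (log2 fold change -0.83 in DN over NC, SE 0.19, edgeR adjusted p = 0.0157), and that call was lost without NC replicate 1 (adjusted p = 0.0557) or NC replicate 3 (0.0589).

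Of 13 class V myosins and cargo partners, 2 fell in DN over NC, where 4.42% of all genes were called lower. DESeq2 called 3, with Rab3a (log2 fold change 0.49) added, where 12.3% of all genes passed. An unadjusted p under 0.05 was found for 6, against 21.9% of all genes. In DN+NaB over NC 2 fell and 3 rose (38.5% called, against 15.6% of all genes). The 3 that rose were Mlph, Rab3a (0.61, edgeR adjusted p = 0.0128) and Dynll1 (0.54, edgeR adjusted p = 0.0131). Mreg, a melanosome carrier protein, had 4.79 ± 0.857 CPM in DN+NaB, 5.92 ± 0.517 in DN and 12.4 ± 1.75 in NC (log2 fold change -1.07 in DN over NC, SE 0.16, edgeR adjusted p = 9.46e-04). Rab27a, the GTPase that links melanosomes to Myo5a through melanophilin, had a log2 fold change of -0.58 (SE 0.12, edgeR adjusted p = 0.00906). Melanophilin itself, Mlph, was at 0.38 in DN over NC (adjusted p = 0.207) and rose in DN+NaB over NC by a log2 fold change of 0.80 (edgeR adjusted p = 0.00585). The list of 10 other enzymes of hydroxybutyrate and succinic semialdehyde held 1 that fell (4.42% of all genes) and 1 that rose (3.82%) in DN over NC. Bdh1, an enzyme of the ketone body 3-hydroxybutyrate, had 81.9 ± 16.6 CPM in DN+NaB, 74.0 ± 18.1 in DN and 245 ± 22.4 in NC (log2 fold change -1.73 in DN over NC, SE 0.19, edgeR adjusted p = 6.35e-05).

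**Figure D5:**
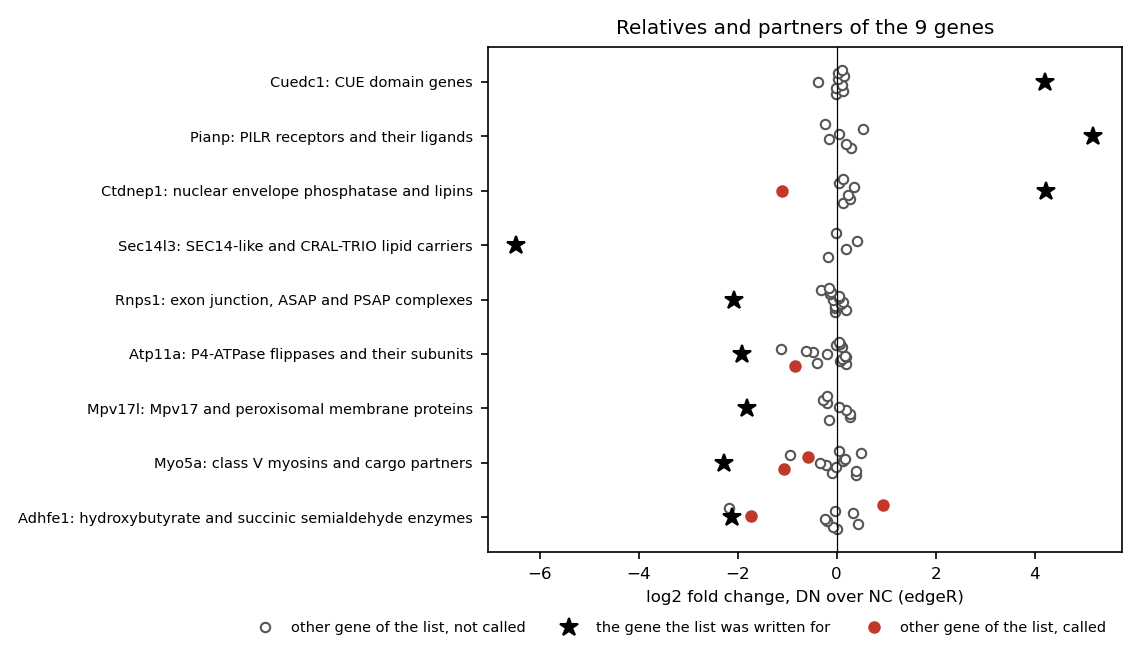
Log2 fold change in DN over NC (x axis) of the tested relatives and partners (circles) of each of the 9 genes (star), 1 list per row. Filled circles passed the test. Most of the 85 circles lie close to 0 while the stars lie between -6.47 and 5.18, and the 6 filled circles include Lpin1, Atp10a, Mreg, Rab27a and Bdh1.

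Genes with a pattern most like each of the 9 were found by the root mean square (RMS) difference of standardised log2 CPM over the 12 libraries, among 14356 tested genes with a name, leaving out the 9 themselves. A value of 0 would mean the same shape, whatever the size of the change. Mrps23, its neighbour, was the nearest to Cuedc1 (0.130), and Mrps23 was also the nearest to Ctdnep1 (0.203), 283 tested genes away on the same chromosome. Atp6v0c, a subunit of the vacuolar proton pump, was the nearest to Rnps1 (0.104) and lies on the same chromosome, with 6 tested genes between them. Its level was 8.61 CPM in DN+NaB, 7.45 in DN and 56.5 in NC. Pianp was nearest to Ccdc42 and Greb1 (both 0.168), Sec14l3 to genes that include Nlrc4 (0.176), and Atp11a to Mcm6 (0.172) and Irx1 (0.203). Mpv17l was nearest to Gclm (0.173) and Lypla1 (0.186), Myo5a to Hs6st2 (0.149) and Rnf24 (0.152), and Adhfe1 to Ppic (0.192) and Rsph3b (0.205). Ube2d-ps was the second nearest to Ctdnep1 (0.212) and Rpsa-ps2 to Rnps1 (0.171), and both are copies whose reads could be shared with parent genes. Within the 9, the closest pairs were Mpv17l with Adhfe1 (0.174), nearer to Adhfe1 than Ppic, and Pianp with Ctdnep1 (0.195), nearer to Ctdnep1 than Mrps23. These genes were picked for their likeness, so the values describe them only.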

How the data were processed

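The authors deposited whole-number counts for each gene symbol in 12 libraries, with no normalization. HISAT2 2.0.4 is named, per the submitters' processing notes, while the build, the annotation, the counting program and its use of strand are not given in the sources used. Groups came from the sample titles.

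All 12 libraries entered 1 quasi-likelihood fit (edgeR 4.0.16, limma 3.58.1, R 4.3.3) with group as its only term, filterByExpr, TMM factors and robust estimation. Calls use a two-sided Benjamini-Hochberg adjusted p under 0.05 over 17530 genes, which hold at least 99.95% of every library's counts. Of the symbols, 18156 had no counts. The fit was tested on simulated counts. CPM used TMM factors, and log2 CPM a prior count of 2. Intervals of 95% are t intervals of the fit or exact binomial counting intervals. Counting intervals and the limit of 3 counts for a count of 0 cover counting error only.

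RefSeq symbols or synonyms matched 16988 of the tested genes and gave gene order. No coordinates beside those of the printed promoters are given. The 9 genes, the gene lists and the rule for named genes were chosen with earlier results of these data known. The rule names the nearest gene on each side, up to 2 called flanking genes, up to 3 called relatives per list and the 2 genes most alike; some genes it names are not reported here. Lpo, Akap1, C030037D09Rik, Srsf1, Ybx2, E4f1, Eif5a, Acadvl, Gps2, Phf23, Lag3, Lpar5, Atp8b2, Atp8b4, Atp10d, Lpin2, Mpv17, Mlph, Rab3a and Dynll1 were named after their values were seen. The alternatives were RLE factors, totals only, at least 1 CPM in 4 libraries, no filter, DESeq2 1.42.0, only the groups compared, a replicate block and leaving out each library.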

Additional observations from a re-analysis of the deposited data

Results flagged for a closer look

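In 57 groups of 4 libraries (the 9 genes and the genes around Cuedc1 and Ctdnep1), 8 held a library far from the other 3 of its group. Chance marks about 1 group in 20 where genes are not picked by their values. Srsf1, Eif5a, Acadvl, Gps2 and Phf23 were named after their values were seen, so the 8 cannot be set against that rate. DN replicate 3 had the highest Ctdnep1 level of its group, 9.48 CPM, against 5.70 to 6.02 in the other DN libraries. DN replicate 4 had the lowest Adhfe1 level, 56.8 CPM, against 75.4 to 78.7. The other 6 lay around Ctdnep1. Gps2, a subunit of a corepressor complex, had 1.84 CPM in NC replicate 2, against 0.0301 to 0.194 in the other NC libraries. Phf23 had 0.882 CPM in the same library, against 0.184 to 0.241. Eif5a had 15.6 CPM in DN+NaB replicate 3, against 3.72 to 3.98. Elp5 had 1.58 CPM in DN replicate 2, against 0.721 to 0.856. Acadvl had 53.1 CPM in DN replicate 2, against 2.13 to 4.86 in DN, and 10.5 CPM in NC replicate 1, against 1.43 to 2.15 in NC.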

How the results depend on the processing

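For the 9 genes, DN over NC moved by less than the spread between replicates under all 15 alternatives each. DN+NaB over NC did so too, except for Sec14l3 at -8.87 without DN+NaB replicate 2 and Rnps1 at -2.17 with libraries scaled by totals alone. In DN+NaB over DN the small differences changed sign when single libraries were left out: the values ran from -0.32 to 0.12 for Pianp, -0.39 to 0.036 for Ctdnep1, -0.038 to 0.054 for Rnps1 and -0.17 to 0.085 for Mpv17l. With totals alone Rnps1 was at -0.0062. Of the 9 genes, 1 passed in DN+NaB over DN with DESeq2 and 0 under each other alternative. The count of all genes called in DN+NaB over DN, 4, was 22 with RLE factors, 26 with totals alone, 17 with at least 1 CPM in 4 libraries, 27 with no filter, 257 with DESeq2 and 0 with only the groups compared, and leaving out single libraries gave 0 to 67. In DN over NC, leaving out single libraries gave 942 (without NC replicate 1) to 1976 called genes (1443 with all), 13 to 16 called flanking genes (14) and 5 to 12 called relatives (6). For DN+NaB over NC the range was 1833 to 2318 called genes (2729 with all). Higher genes in DN over NC (669) numbered 1031 with DESeq2, 409 without NC replicate 1 and 428 without NC replicate 3. For DN+NaB over NC, higher genes (1161) numbered 1783 with only the groups compared, and lower genes (1568) 1043 without DN+NaB replicate 2. The median log2 fold change was -0.08 (DN over NC) and -0.12 (DN+NaB over NC) with totals alone. Same-numbered libraries did not deviate together in all pairs (correlations -0.168 to 0.208), and the main fit treated libraries as unpaired. Libraries of different numbers were not set beside them, so a pairing or a shared batch was not tested. With a replicate block, 1416 genes were called in DN over NC, 2891 in DN+NaB over NC and 7 in DN+NaB over DN. The cause of these differences was not tested. Sec14l3 in diabetic libraries, and Cuedc1, Pianp and Ctdnep1 in NC, rest on at most 55 counts per library.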
